A study of Mus musculus with 28 samples.

Results

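Leukaemic cells that carried the sort markers of granulocyte-macrophage progenitors (L-GMP, 6 arrays) were compared with normal megakaryocyte-erythroid progenitors (MEP, 3 arrays) across all genes measured, using 9 of the 28 mouse expression arrays of the series. The arrays were chosen by sample title alone. Both groups were sorted from bone marrow as cells without lineage markers (Lin-) or Sca, with Kit. MEP were also FCR- and CD34-, and L-GMP were FCR+ and CD34+. The series concerns leukaemia driven by MLL-AF9, and the labels describe the L-GMP samples as leukaemic without naming the allele, promoter, strain, age or donor animal. Each sample held about 10000 sorted cells, of whose RNA about 50 ng was labelled. The other arrays were used only for the common estimate of the spread and as reference levels. They came from normal marrow, with 5 arrays labelled HSC enriched, 4 labelled CMP (common progenitors of the myeloid lineages) and 4 of GMP. Below, HSC stands for this sort enriched for stem cells, not for pure stem cells. A further 6 arrays of transduced cells, amplified on other days, were left out. Nothing in the labels says that replicates came from separate animals, so p-values measure the spread between these arrays, which may be technical.

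MEP give rise to red cells and platelets, and their gene programme is built around the zinc finger factor GATA1 and its partners. GMP give rise to neutrophils and monocytes under the control of the factors PU.1 (Spi1) and C/EBPα, and make granule proteases in bulk. MLL-AF9 joins the chromatin regulator MLL to a subunit of transcription elongation complexes and is known for keeping HoxA genes and Meis1 active in leukaemic cells. In sorted bulk samples, fewer cells of a type and less RNA per cell cannot be told apart.

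Levels are given as log2 of the scaled array intensity, in which 5.27 is a floor set at the 25th percentile of all values, with no order among values at it. A fold against a group with arrays at the floor is a lower bound and is written "at least". A group wholly at the floor adds no spread to the fit, so p-values of such genes understate the spread between arrays. A gene was called when its adjusted p lay under 0.05 in the limma fit over 8431 genes. The markers fixed for each population fell on the side of its label. All 8 MEP markers that were tested (Gata1, Klf1, Zfpm1, Gfi1b, Epor, Car1, Rhag and Itga2b) were called lower in L-GMP. All 10 GMP markers (Mpo, Elane, Prtn3, Ctsg, Ms4a3, Cebpa, Spi1, Irf8, Csf1r and Csf3r) were called higher. The genes of the sort itself followed the gates and are no finding. Fcgr3 lay between 9.26 and 10.01 in L-GMP and at the floor on all 3 MEP arrays, Fcgr2b averaged 10.78 against 6.95, and Cd34 averaged 8.08 against 6.28. Kit, positive in both gates, was 2.45-fold lower in L-GMP.

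Of the 8431 genes, 3804 were called (45.1%), 1873 of them higher in L-GMP (22.2%) and 1931 lower (22.9%). Every list count below is to be read beside these shares of 22.2% and 22.9%. A gene was tested when a probe set passed the overall median on 3 or more arrays. A gene bright in L-GMP alone or in MEP alone passes, and its direction is then fixed. List counts in either direction partly reflect this choice of genes. A change of at least 2-fold was called for 1283 genes (15.2%), of which 749 were higher (8.88%) and 534 lower (6.33%). At 8-fold or more there were 115 higher and 71 lower. The median difference over all genes was -0.05. The L-GMP and MEP values did not overlap for 3111 genes (36.9%). Across genes, which are not independent replicates, L-GMP arrays correlated with MEP arrays at r from 0.75 to 0.81 and with normal GMP arrays at 0.88 to 0.92, while arrays within L-GMP correlated at 0.94 to 0.98. RNA length was read from the control probe sets at either end of Actb and Gapdh. Their mean log2 3'/5' ratio was lower in L-GMP (2.85 ± 0.08, SD, n = 6) than in MEP (3.10 ± 0.10, SD, n = 3). The 2 groups did not overlap (two-sided exact permutation p = 0.0119 over 84 splits). With this ratio as a covariate 3418 genes were called. Of the MEP arrays, MEP 2 had the highest level of primary granule genes (9.59 against 8.80 and 8.59). Without it 3472 genes were called.

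**Figure D1:**
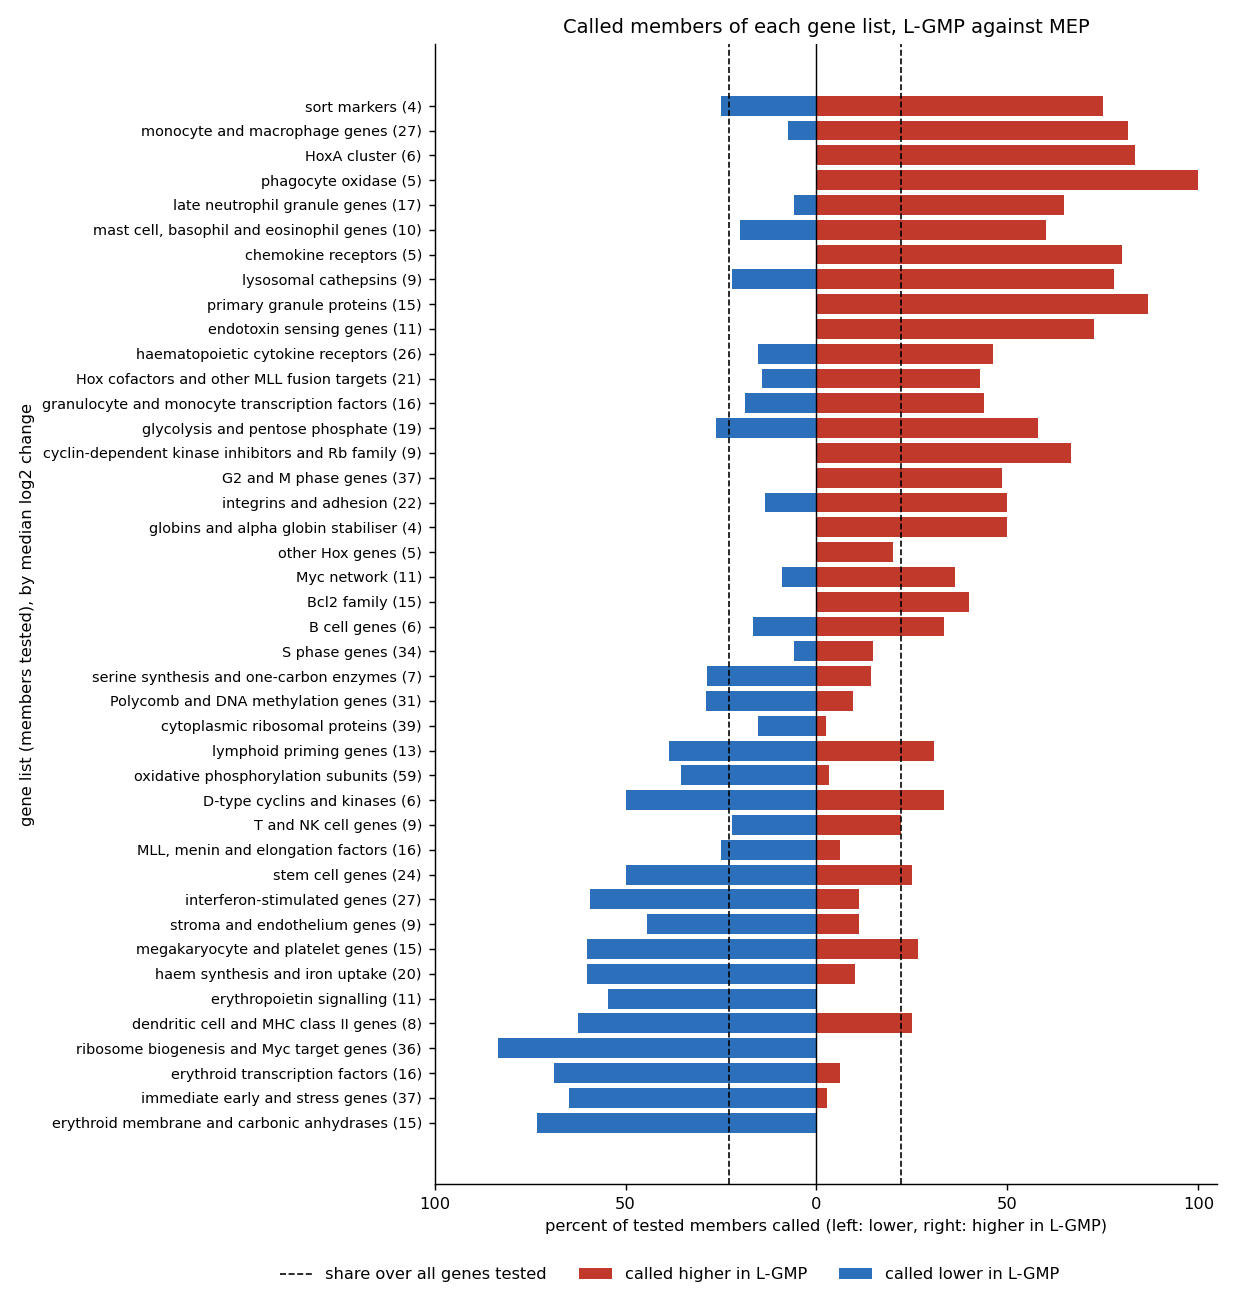
Percent of the tested members of each gene list that were called lower (left, blue) or higher (right, red) in L-GMP than in MEP, with the number tested in brackets and the lists ordered by median log2 difference. Dashed lines mark the share over all genes tested, 22.9% lower and 22.2% higher. Myeloid and HoxA lists stand at the top. Erythroid and stress lists and the list of ribosome biogenesis and Myc target genes stand at the bottom.

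The erythroid transcription factors were mostly lower in L-GMP. Of 19 listed factors 16 passed the filter on low values. In L-GMP 11 of the 16 were lower and 1 was higher, beside 22.9% and 22.2% of all genes, and their median difference was -1.39. Klf1, which activates adult globin and haem genes, lay at 10.11, 10.31 and 10.96 in MEP and at the floor in all of L-GMP, at least 36.5-fold lower (limma adjusted p = 1.21e-12). Gfi1b, a repressor needed for red cell and platelet formation, lay at 9.76, 9.78 and 9.69 in MEP and at the floor throughout L-GMP, at least 22.2-fold lower. Tal1, a partner of GATA1, lay at 9.92, 9.83 and 9.82 in MEP and was also at the floor in every L-GMP array, at least 24.0-fold lower. Zfpm1, which encodes the GATA1 cofactor FOG1, was at least 6.96-fold lower in the same way. For these 4 factors a leukaemic array never rose above the floor.

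Gata1 itself did not reach the floor. It lay at 9.36, 9.51 and 9.52 in MEP and between 5.61 and 6.25 in L-GMP (median 6.13), 11.0-fold lower (limma adjusted p = 9.16e-12), and normal GMP averaged 6.03 ± 0.22 (SD, n = 4). Gata2, which acts earlier and is shared with mast cells and stem cells, was lower by only 3.09-fold, at 11.34, 11.61 and 11.70 in MEP against 8.83 to 10.42 in L-GMP. Bcl11a, which silences fetal globin and is also active in stem and B cells, lay at 10.44, 10.39 and 9.997 in MEP and at the floor on 5 of 6 L-GMP arrays, at least 31.8-fold lower. Its level was 8.52 ± 0.13 (SD, n = 4) in normal GMP, so it separated L-GMP from GMP as well (limma adjusted p = 4.45e-17 for L-GMP minus GMP, a contrast in which 33.5% of genes were called and which uses the same L-GMP arrays). Ldb1, the bridge between these factors, was 4.09-fold lower. Lyl1, a close relative of Tal1, was the 1 factor called higher, by 2.34-fold. Values for Lmo2 (0.18), Nfe2 (-0.04) and Myb (-0.05) were not called, except Lmo2 without L-GMP 4 (limma adjusted p = 0.0318). Foxo3 is left without a direction because its probe sets disagreed, at -1.15, -1.25 and 3.11, and without it 10 of 15 factors were lower.

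The stretch of 250 bases before the start site of 3 genes whose MEP level was high and whose L-GMP level lay at or near the floor is shown for the sequence GATAA, the core recognised by GATA factors. Capitals mark GATAA or its reverse complement TTATC. Sequences are from RefSeq on GRCm38.p6, on the strand of the gene: Klf1 at chr8:84901732-84901981 (plus strand), Epor at chr9:21963577-21963826 (minus strand) and Rhag at chr17:40810899-40811148 (plus strand).
Klf1: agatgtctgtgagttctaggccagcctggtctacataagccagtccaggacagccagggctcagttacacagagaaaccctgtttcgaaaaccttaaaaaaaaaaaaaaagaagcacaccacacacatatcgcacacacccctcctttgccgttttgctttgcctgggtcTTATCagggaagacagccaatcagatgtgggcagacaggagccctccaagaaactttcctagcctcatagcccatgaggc
Epor: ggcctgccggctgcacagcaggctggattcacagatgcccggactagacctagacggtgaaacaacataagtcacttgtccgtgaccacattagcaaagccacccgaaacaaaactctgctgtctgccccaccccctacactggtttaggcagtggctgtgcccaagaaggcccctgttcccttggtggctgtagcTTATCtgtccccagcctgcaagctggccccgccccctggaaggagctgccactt
Rhag: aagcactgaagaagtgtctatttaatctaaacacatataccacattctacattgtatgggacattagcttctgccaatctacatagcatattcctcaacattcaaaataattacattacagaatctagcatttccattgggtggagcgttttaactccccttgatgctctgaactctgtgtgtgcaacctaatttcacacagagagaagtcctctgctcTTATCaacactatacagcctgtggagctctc
Each of the 3 holds 1 match, as TTATC. They are shown because they hold it, and the same window of Gata1 holds 0. Over the erythroid lists, 38 of 40 genes called lower matched the promoter table, and 18 of their 55 promoters (32.7%) held GATAA on either strand, beside 15.2% of the promoters of all genes tested and 22.6% of all promoters in the table. The sequence CCNCNCCC, the core of sites for KLF factors, was held by 72.7% of the same 55 promoters, beside 62.7% for all genes tested. These are matches of letters and not sites of binding.

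Most of the red cell surface genes that passed the filter were lower in L-GMP, several of them at the floor. Of 23 listed, 15 passed the filter, and 11 of the 15 were lower and 0 higher, with a median difference of -2.35. The filter keeps a gene that was bright on the MEP arrays alone, and such a gene can only come out lower. This count and median therefore partly reflect the choice of genes tested. The count fell to 6 when a probe set had to pass on 6 arrays. Car1, the carbonic anhydrase of early red cells, lay at 12.02, 12.24 and 12.56 in MEP and between 5.27 and 6.19 in L-GMP (median 6.07), at least 79.8-fold lower (limma adjusted p = 5.27e-11). Aqp1, the water channel, lay at 10.77, 10.86 and 11.27 in MEP and at the floor on 5 of 6 L-GMP arrays, at least 50.6-fold lower. Ermap, a red cell adhesion protein, lay at 10.99, 11.00 and 11.17 in MEP, with every L-GMP array at the floor, at least 55.2-fold lower. MEP and L-GMP stood more than 4 log2 units apart on each of these.

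Icam4, the Landsteiner-Wiener antigen, was at least 24.7-fold lower and Rhag, the Rh-associated glycoprotein, at least 12.8-fold lower, both with every L-GMP array at the floor. Kel, of the Kell blood group, was at least 10.4-fold lower. Car2, a carbonic anhydrase that is not confined to red cells, lay between 9.35 and 11.17 in L-GMP against 11.34, 11.51 and 12.30 in MEP, only 3.23-fold lower. Rhd was 3.10-fold lower. A pair of genes of the mature membrane was not called. Slc4a1, the anion exchanger band 3, differed by 0.44 (limma adjusted p = 0.0875) and Ank1, the ankyrin that anchors it, by -0.29 (limma adjusted p = 0.271), both by limma. When a probe set had to pass on 6 arrays, which removes genes measured in MEP alone, 6 members were called lower instead of 11.

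Globin genes were low in both populations. Of 10 listed genes 4 were tested. Hba-a1 lay at 7.04, 6.81 and 6.99 in MEP and between 7.37 and 7.86 in L-GMP, 1.58-fold higher in L-GMP (limma adjusted p = 0.000863). Hba-x was 1.28-fold higher, a call lost without MEP 1 (limma adjusted p = 0.083) or MEP 2 (0.0649) and on the 9 arrays alone (0.0529). Hbb-b2 lay at 5.93, 5.27 and 8.30 in MEP and was not called. The copies of alpha globin are near identical and may not be told apart by their probe sets.

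Haem synthesis and iron uptake genes were mostly lower in L-GMP. The 2 exceptions were Alas1 and the mitochondrial iron importer Slc25a37. Of 24 listed 20 were tested, 12 lower and 2 higher, with a median of -0.63. Alas1, the general form of the first enzyme of haem synthesis, lay between 10.65 and 11.14 in L-GMP and at 7.16, 7.41 and 7.60 in MEP, 11.980-fold higher (limma adjusted p = 3.95e-14), and averaged 10.95 in normal GMP. Alas2, the red cell form of the same enzyme, was lower by 1.34-fold, at 7.07, 7.14 and 7.22 in MEP against 6.47 to 7.03 in L-GMP. That call was lost without MEP 3 (limma adjusted p = 0.0529), with the 3'/5' ratio as covariate (0.0607) and with array weights (0.0658). Of the later enzymes, Alad was 7.01-fold lower, Cpox 7.72-fold, Urod 3.06-fold and Uros 2.10-fold. Ppox (-0.29) and Fech (0.08), the last steps, were not called. Tfr2, the second transferrin receptor, lay at 10.29, 10.05 and 10.36 in MEP and at the floor on 4 of 6 L-GMP arrays, at least 29.6-fold lower, whereas Tfrc, the main receptor of all dividing cells, was 1.71-fold lower. The biliverdin reductase Blvrb was 13.3-fold lower.

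Several genes of erythropoietin signalling were lower, the receptor among them. Of 12 listed genes 11 were tested, 6 lower and 0 higher (median -0.68). Epor lay at 8.84, 8.93 and 9.34 in MEP and between the floor and 5.56 in L-GMP, at least 12.5-fold lower (limma adjusted p = 2.59e-12), and at the floor on all 4 normal GMP arrays. Its kinase Jak2 was 1.65-fold lower (not called on the probe set of largest variance, limma adjusted p = 0.193), the transcription factor Stat5a 2.53-fold lower and the kinase Pim1, a Stat5 target, 4.82-fold lower. Bcl2l1, the survival gene downstream of the receptor, was not called on its brightest probe set (-0.01, limma adjusted p = 0.966). Its probe set of largest variance gave -0.76 (limma adjusted p = 0.00152).

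Megakaryocyte and platelet genes were more often called lower than higher. Of 31 listed 15 passed the filter, 9 lower (60%) and 4 higher (26.7%), beside 22.9% and 22.2% of all genes (median -0.63). F2r, the thrombin receptor, showed the largest difference of all genes named here: 12.27, 12.40 and 12.19 in MEP and the floor on every L-GMP array, at least 130-fold lower (limma adjusted p = 2.85e-19). Pf4, the platelet chemokine, lay at 10.76, 10.70 and 11.25 in MEP and between 5.67 and 6.38 in L-GMP, 29.8-fold lower. Itga2b, the platelet fibrinogen receptor chain, was 3.72-fold lower and Vwf, the von Willebrand factor, at least 3.93-fold lower, the latter not called with the floor at the 50th percentile (limma adjusted p = 0.211). Gp9 was 1.55-fold lower, a call lost with the floor at the 50th percentile and without MEP 1 (0.0826) or MEP 2 (0.146). Fli1, an ETS factor of megakaryocytes that is also active in myeloid cells, was 6.67-fold higher in L-GMP, at 8.72 to 9.34 against 6.88, 6.30 and 5.77. With the floor at the 50th percentile 5 members were lower. Gp1bb is given no direction, since its probe sets disagreed (0.54 and -1.14). Without it 3 of 14 members were higher, near the share over all genes.

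**Figure D2:**
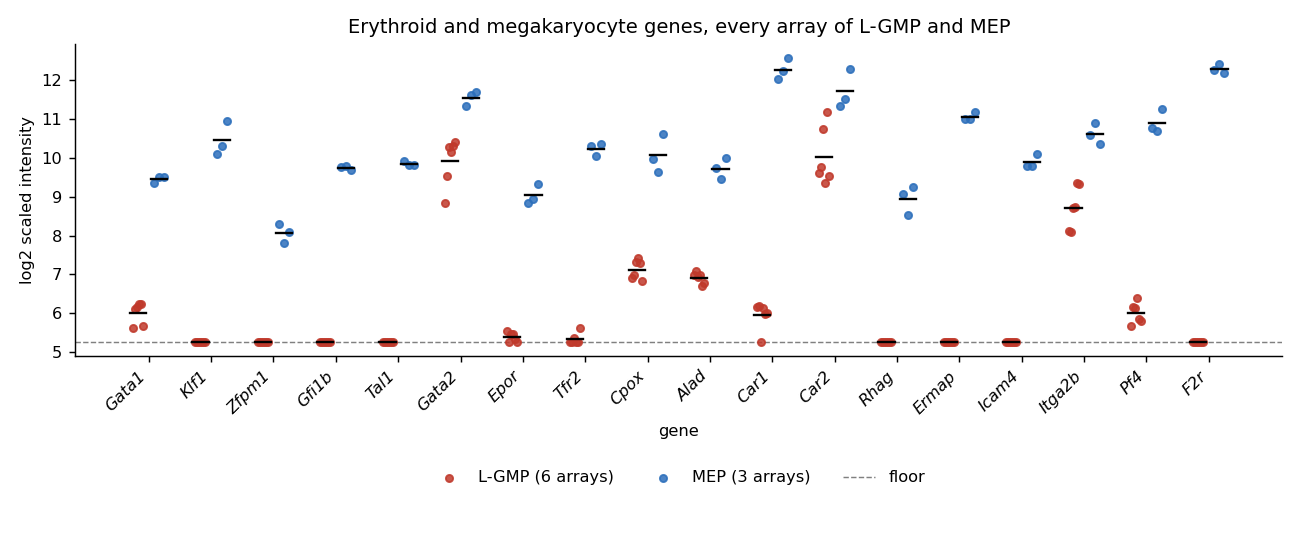
Log2 scaled intensity of 18 erythroid and megakaryocyte genes on each array of L-GMP (red, 6) and MEP (blue, 3), with black bars for group means and a dashed line at the floor of 5.27. Klf1, Zfpm1, Gfi1b, Tal1, Rhag, Ermap, Icam4 and F2r lie on the floor in every L-GMP array, while Gata2, Car2 and Itga2b stay well above it.

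Other genes lower in L-GMP by the largest amounts came from several classes. Apoe, the lipid carrier, lay at 11.68, 11.72 and 12.04 in MEP and at the floor in L-GMP, at least 93.3-fold lower. Ctla2a, a cysteine protease inhibitor of stem and progenitor cells, was at least 64.9-fold lower and the carboxylesterase Ces2g at least 41.8-fold lower, again with L-GMP at the floor. Tgif2, a homeobox repressor, lay at 10.16, 10.27 and 10.34 in MEP and was at least 26.7-fold lower. Bex4 was at least 23.5-fold lower. Ctla2a (8.60) and Tgif2 (9.38) were well above the floor in normal GMP, while Ces2g (5.30) was not.

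On the myeloid side, several factors that drive granulocyte and monocyte fate were higher in L-GMP. Of 24 listed factors 16 were tested, 7 higher and 3 lower, with a median of 0.50. Spi1, which encodes PU.1, lay between 9.52 and 10.10 in L-GMP (median 9.86) and at 6.97, 7.19 and 6.54 in MEP, 7.71-fold higher (limma adjusted p = 5.29e-12). Gfi1, the granulocytic repressor, lay between 10.44 and 10.67 in L-GMP and at 6.78, 7.16 and 5.31 in MEP, 18.1-fold higher. Cebpd was at least 21.2-fold, Cebpb 6.90-fold, the monocyte factor Irf8 3.63-fold and Cebpa 2.47-fold higher, each without overlap. Cebpa lay between 7.44 and 8.30 in L-GMP and averaged 9.03 ± 0.13 (SD, n = 4) in normal GMP. The 3 lower members, Egr1, Klf4 and Nr4a1, are also immediate early genes, and the call of Nr4a1 was lost without MEP 1 (limma adjusted p = 0.0641), MEP 2 (0.0501) or MEP 3 (0.0881). Gfi1 and its relative Gfi1b were thus placed oppositely, as the dot plots of both programmes show.

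**Figure D3:**
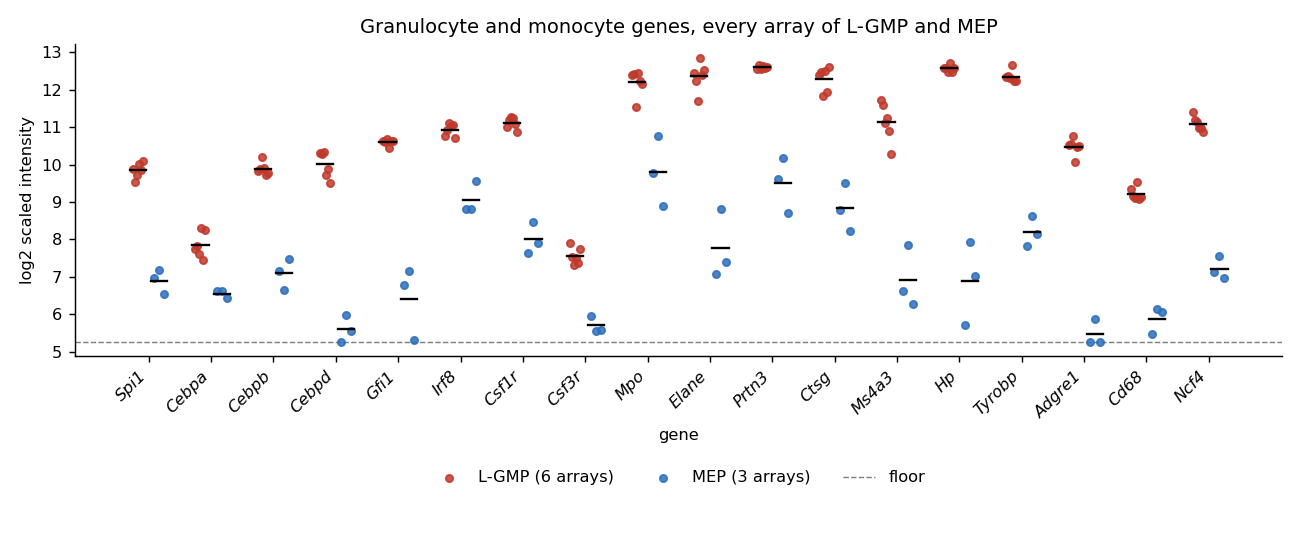
Log2 scaled intensity of 18 granulocyte and monocyte genes on each array of L-GMP (red, 6) and MEP (blue, 3), with black bars for group means and a dashed line at the floor of 5.27. In all 18 the lowest L-GMP array lies above the highest MEP array, and MEP 2, the middle blue point, is the highest MEP array for Mpo, Elane, Prtn3, Ctsg and Ms4a3.

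Genes of the primary granule list were mostly higher in L-GMP. Of 16 listed 15 were tested, 13 higher and 0 lower (median 1.003). Elane, neutrophil elastase, lay between 11.69 and 12.84 in L-GMP and at 7.07, 8.83 and 7.40 in MEP, 24.1-fold higher (limma adjusted p = 1.14e-06). Prtn3, proteinase 3, lay between 12.54 and 12.66 and at 9.60, 10.18 and 8.70, 8.55-fold higher. Mpo, myeloperoxidase, lay between 11.54 and 12.45 and at 9.78, 10.77 and 8.88, 5.22-fold higher. MEP thus kept a measurable level of these granule genes, highest on MEP 2 for all of them. Ctsg, cathepsin G, was 10.9-fold higher. The list is not of granule proteases alone. It also holds the GMP marker Ms4a3 (18.8-fold higher), the protease inhibitor Serpinb1a (9.59-fold) and Igsf6 (at least 46.0-fold). The lysozymes Lyz1 (0.57) and Lyz2 (0.43), near-identical copies that the array may not separate, were not called.

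The same window before the start site is shown for these 3 granule genes, with capitals for GAGGAA, a sequence recognised by PU.1. Sequences are from RefSeq on GRCm38.p6, all on the plus strand: Elane at chr10:79886062-79886311, Prtn3 at chr10:79879417-79879666 and Mpo at chr11:87793534-87793783.
Elane: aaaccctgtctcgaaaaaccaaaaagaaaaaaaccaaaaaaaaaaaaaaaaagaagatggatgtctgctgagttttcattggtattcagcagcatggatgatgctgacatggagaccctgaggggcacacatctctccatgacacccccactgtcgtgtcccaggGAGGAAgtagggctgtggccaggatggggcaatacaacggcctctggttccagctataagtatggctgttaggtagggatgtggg
Prtn3: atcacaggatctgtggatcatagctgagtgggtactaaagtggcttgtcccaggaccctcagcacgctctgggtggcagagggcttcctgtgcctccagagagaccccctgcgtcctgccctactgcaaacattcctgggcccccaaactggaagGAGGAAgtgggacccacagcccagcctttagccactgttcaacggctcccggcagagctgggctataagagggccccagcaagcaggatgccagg
Mpo: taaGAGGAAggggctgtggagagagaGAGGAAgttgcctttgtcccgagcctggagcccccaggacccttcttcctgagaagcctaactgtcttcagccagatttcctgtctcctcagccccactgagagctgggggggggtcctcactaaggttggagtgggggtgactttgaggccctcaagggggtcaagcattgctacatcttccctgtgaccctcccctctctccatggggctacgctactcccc
Elane and Prtn3, which lie close together on chromosome 10, hold 1 match each and Mpo holds 2. They too are shown because they hold it, and the window of Ms4a3 holds 0. Over the myeloid lists, 45 of 58 genes called higher matched the promoter table, and 27 of their 54 promoters (50%) held GAGGAA or its reverse complement TTCCTC, beside 22.7% of the promoters of all genes tested and 23.3% of all promoters. TTGCNNAA, the core of C/EBP sites, was held by 11.1% of the 54, beside 7.78% for all genes tested.

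Late neutrophil granule genes were more often called higher than lower. Of 26 listed 17 were tested, 11 higher and 1 lower (median 1.87). Hp, haptoglobin, lay between 12.46 and 12.72 in L-GMP and at 5.73, 7.94 and 7.03 in MEP, 50.7-fold higher (limma adjusted p = 1.44e-08). Pglyrp1, a peptidoglycan binding granule protein, lay between 8.97 and 10.06 with MEP at the floor, at least 16.6-fold higher. Camp, the cathelicidin, was 4.52-fold higher, but its groups overlapped, and the call was lost without MEP 1 (limma adjusted p = 0.0705) or MEP 3 (0.0637). Ltf, lactoferrin of secondary granules, ran the other way: 6.74, 9.18 and 7.94 in MEP and the floor to 6.76 in L-GMP, at least 4.74-fold lower, a call lost without MEP 2 (0.109). S100a8 lay between 11.64 and 13.17 in L-GMP and at 10.93, 12.60 and 11.54 in MEP, and was not called (0.98, limma adjusted p = 0.098). It was called without MEP 2 (limma adjusted p = 0.0316) or L-GMP 6 (0.0428). S100a9 (0.60), Ngp (0.86) and Lcn2 (0.79) were not called either. The list's mean level ran from 9.39 to 10.80 in L-GMP and from 7.56 to 8.72 in MEP, with MEP 2 highest.

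Monocyte and macrophage genes were mostly higher in L-GMP. All 34 were on the array and 27 were tested, 22 higher and 2 lower (median 2.37). Adgre1, the macrophage surface protein F4/80, lay between 10.07 and 10.77 in L-GMP and at 5.27, 5.87 and 5.27 in MEP, at least 32.2-fold higher (limma adjusted p = 1.33e-14), while normal GMP averaged 7.36 ± 0.15 (SD, n = 4). Ly86, the partner of the toll-like receptor relative RP105, lay between 10.68 and 11.24 and at 5.76, 6.37 and 6.13, 31.8-fold higher. Tyrobp, the signalling adaptor DAP12, was 17.8-fold higher, Fcer1g 10.4-fold, the lectin Clec4a2 at least 26.6-fold and the lysosomal protein Cd68 10.1-fold. The transglutaminase F13a1 was 12.6-fold and the galectin Lgals3 3.76-fold higher.

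Not every monocyte gene followed. Apoe and the lectin Clec4d, which lay at 10.18, 10.35 and 9.79 in MEP and was 8.004-fold lower in L-GMP, were the 2 lower members. The endotoxin co-receptor Cd14 lay between 5.47 and 7.08 with MEP at the floor, at least 1.97-fold higher, but its call was lost without any single MEP array (limma adjusted p = 0.0733 to 0.0753) and with the replicate block (0.0572). Cx3cr1, a receptor of patrolling monocytes, differed by 0.16 (limma adjusted p = 0.526). Ccr2, of inflammatory monocytes, was 2.32-fold higher.

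Cytokine receptors were more often called higher than lower. Of 30 listed cytokine receptors 26 were tested, 12 higher and 4 lower, the latter Epor, Il17ra, Kit and Tgfbr2 (median 0.77). Csf1r, the M-CSF receptor, lay between 10.86 and 11.26 in L-GMP and at 7.65, 8.47 and 7.89 in MEP, 8.59-fold higher (limma adjusted p = 3.13e-11). Il6ra was at least 7.11-fold, the G-CSF receptor Csf3r 3.61-fold and the GM-CSF receptor Csf2ra 3.47-fold higher. Flt3 lay between 6.59 and 8.05 and at 6.96, 7.06 and 6.29 and was not called (0.67, limma adjusted p = 0.0864). It was called without L-GMP 1 (0.0237) or L-GMP 3 (0.0240).

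All 5 tested genes of the phagocyte oxidase were higher, led by the cytosolic subunit Ncf4, at 10.88 to 11.40 in L-GMP against 7.12, 7.57 and 6.96 (14.7-fold, limma adjusted p = 1.47e-14). The membrane subunit Cyba was 4.28-fold higher and the GTPase Rac2 3.78-fold. Of 9 tested cathepsins 7 were higher and 2 lower, Ctsh by at least 22.7-fold. Of 11 tested endotoxin sensing genes 8 were higher and 0 lower, with Tlr1 at 8.27 to 9.43 against a floor in MEP (at least 11.8-fold). With the floor at the 50th percentile 5 of these 11 were higher. Of 12 listed chemokine receptors 5 were tested, and 4 of the 5 were higher. Ccr1, at the floor on every HSC, CMP and MEP array and at most 5.55 in GMP, passed the filter through L-GMP alone. Its direction was therefore fixed, and the count of 4 partly reflects the choice of genes tested. Ccr1 was at least 9.12-fold and Cxcr4, which holds progenitors in marrow, 6.39-fold higher.

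Further genes with the largest excess in L-GMP were Slpi, a secreted inhibitor of elastase (12.46 to 12.85 against 7.39, 7.90 and 7.97, 29.3-fold), Anxa3 (10.91 to 11.60 against 5.63, 6.63 and 5.27, at least 41.0-fold), Gdpd3 (at least 24.6-fold), the purine enzyme Adssl1 (at least 23.3-fold) and the choline dehydrogenase Chdh (at least 22.8-fold). Their levels in normal GMP differed. Anxa3 averaged 11.00 ± 0.19, Adssl1 9.62 ± 0.14 and Chdh 10.81 ± 0.10 in GMP (SD, n = 4), near the L-GMP means of 11.20, 9.89 and 10.35. Slpi, at 9.85 ± 0.22, and Gdpd3, at 7.53 ± 0.14, were below the L-GMP means of 12.63 and 10.002 (limma adjusted p = 3.05e-12 and 1.02e-13 for L-GMP minus GMP).

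Several genes were bright in L-GMP and at the floor in MEP, and also at the floor in every normal GMP array. Hpgd, the enzyme that inactivates prostaglandins, lay between 11.63 and 11.88 in L-GMP. It was at the floor on all HSC, CMP, GMP and MEP arrays, at least 87.5-fold higher in L-GMP than in MEP. Igf2bp3, a fetal RNA binding protein, lay between 10.08 and 10.68 and was at least 33.6-fold higher. Penk, the precursor of enkephalins, lay between 9.35 and 11.17 and was at least 32.4-fold higher. None of the 16 normal arrays rose above the floor for these 3 genes. They passed the filter through the L-GMP arrays alone, so their direction was fixed in advance. Their levels are given as description, without a p-value. Gpc1, a heparan sulphate proteoglycan, was at least 25.4-fold higher than in MEP, but its level of 8.71 in normal GMP was well above the floor.

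Eosinophil granule genes were bright on every leukaemic array. Prg3 lay between 9.92 and 10.48 in L-GMP with MEP at the floor, at least 32.6-fold higher (limma adjusted p = 1.16e-11), and Prg2, major basic protein, lay between 9.82 and 11.66 against 5.27, 6.94 and 7.22, at least 22.7-fold higher. Hdc, which makes histamine, was at least 13.7-fold higher. In the list of mast cell, basophil and eosinophil genes 10 of 21 were tested, 6 higher and 2 lower. Mcpt8, the basophil protease, lay between 5.27 and 7.29 in L-GMP, averaged 8.14 in normal GMP and lay at the floor in MEP. It was at least 1.91-fold higher than MEP, a call lost with the 3'/5' ratio as covariate (limma adjusted p = 0.0546) and on the 9 arrays alone (0.0861). The list's mean level ran from 8.38 to 8.74 in L-GMP and from 6.97 to 7.36 in MEP. In normal GMP it ran from 8.13 to 8.49, overlapping L-GMP, and in CMP from 7.59 to 7.79. The list's level is therefore not particular to the leukaemic cells.

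The HoxA genes, known targets of MLL fusions, were mostly higher in L-GMP than in MEP. Of 11 listed 6 were tested, 5 higher and 0 lower (median 2.06). Hoxa9, the member most tied to MLL leukaemia, lay between 10.94 and 11.999 in L-GMP (median 11.60) and at 9.83, 9.62 and 8.63 in MEP, 4.59-fold higher (limma adjusted p = 3.09e-08). Hoxa10 lay between 8.44 and 9.44 and at the floor on all MEP arrays, at least 12.9-fold higher. Hoxa5 was 9.08-fold, Hoxa3 at least 3.81-fold and Hoxa7 2.25-fold higher. The groups did not overlap for any of the 5. Hoxa11 was not called (0.13, limma adjusted p = 0.713). These genes are naturally active in stem cells. Hoxa9 averaged 11.56 in L-GMP and 11.50 in the HSC enriched sort, Hoxa5 10.30 and 9.78, and Hoxa10 8.96 and 7.56.

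Outside the A cluster 5 of 19 listed Hox genes were tested and only Hoxc5 was called, at 1.60-fold higher with overlapping groups and limma adjusted p = 0.0486 by limma. That call was lost in 12 of the 24 alternatives run, including the replicate block and the fit without MEP 1 or without MEP 2.

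Partners of the Hox proteins and other reported targets of MLL fusions gave a mixed picture. Of 30 listed 21 were tested, 9 higher and 3 lower (median 0.51). Pbx3, a DNA binding partner of HOXA9, lay between 8.58 and 9.22 in L-GMP and at 5.59, 5.47 and 5.27 in MEP, at least 12.1-fold higher (limma adjusted p = 7.74e-14), and stayed near the floor in HSC (5.69), CMP (5.71) and GMP (5.30). Meis1, the other partner, lay between 9.56 and 9.99 and at 9.36, 9.38 and 7.9999. It was 1.79-fold higher, a smaller difference than the 2.24 log2 units between L-GMP and normal GMP, since MEP (8.91) lay above GMP (7.51). Mef2c was 2.78-fold higher, the RNA regulator Cpeb2 at least 3.27-fold (not called with the floor at the 50th percentile), Tcf4 2.25-fold and the demethylase-like Jmjd1c 1.63-fold. The lower members were Sox4 (2.37-fold), Msi2 (2.13-fold, groups overlapping) and Hmgb3 (4.19-fold). Sox4 averaged 9.76 in MEP and 8.51 in L-GMP.

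**Figure D4:**
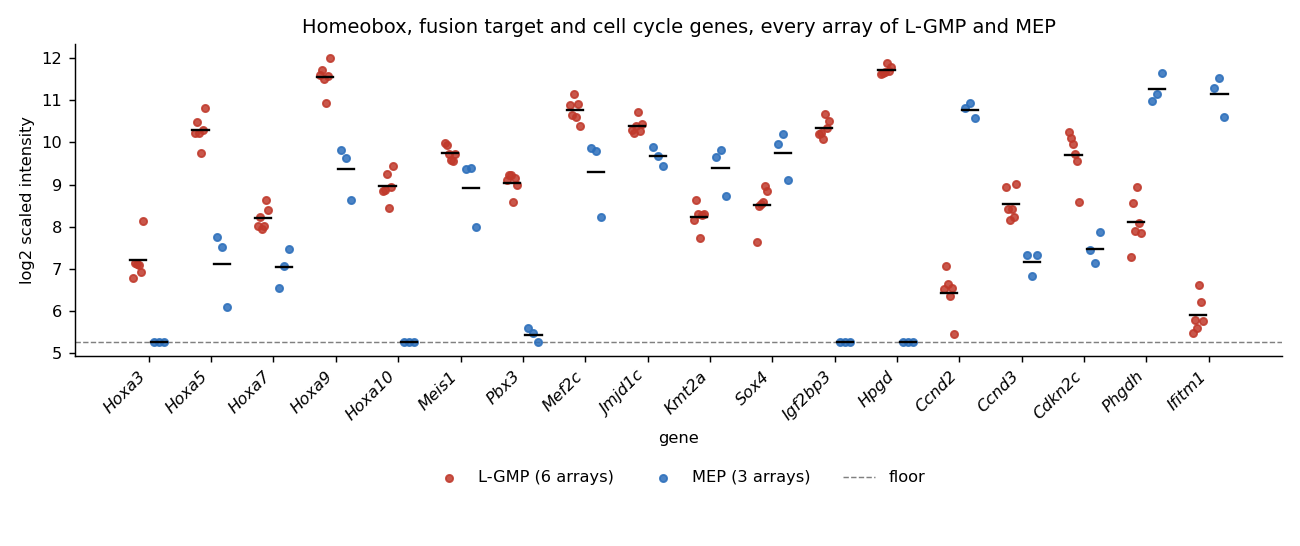
Log2 scaled intensity of 18 homeobox, fusion target, cell cycle and other genes on each array of L-GMP (red, 6) and MEP (blue, 3), with black bars for group means and a dashed line at the floor of 5.27. Hoxa3, Hoxa10, Igf2bp3 and Hpgd lie on the floor in all MEP arrays, and Kmt2a, Sox4, Ccnd2, Phgdh and Ifitm1 are the genes shown that are higher in MEP.

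The genes that form the fusion were lower in L-GMP. Kmt2a, whose product is MLL, lay between 7.72 and 8.62 in L-GMP and at 9.66, 9.81 and 8.73 in MEP, 2.25-fold lower (limma adjusted p = 6.39e-05). Mllt3, whose product is AF9, lay at the floor on 5 of 6 L-GMP arrays against 6.39, 6.36 and 5.99 in MEP, at least 1.83-fold lower, and was not called with the floor at the 50th percentile. Where the probes of either gene lie relative to the break was not analysed here, so neither value measures the fusion. Men1, the cofactor menin, was not called (-0.12, limma adjusted p = 0.447). Of 16 tested genes of this list 1, Aff1, was higher and 4 were lower (25%, beside 22.9% of all genes). Psip1 was 2.84-fold and the elongation factor Ell2 6.67-fold lower.

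Stem cell genes were more often called lower than higher. Of 32 listed 24 were tested, 12 lower and 6 higher (median -0.45), beside 22.9% and 22.2% of all genes, and 5 higher without Mycn. Cd34, whose direction the sort gates fixed, is among the higher members and is no finding. Ifitm1 lay between 5.47 and 6.61 in L-GMP and at 11.28, 11.53 and 10.60 in MEP, 37.7-fold lower (limma adjusted p = 5.41e-14), and its neighbour Ifitm3 was 16.4-fold lower. The transporter Abcg2 was at least 7.46-fold, the surface receptor Slamf1 at least 4.10-fold and Hlf, a factor of quiescent stem cells, at least 3.32-fold lower. Higher members included Cdkn1c, at 6.64 to 9.13 against 6.14, 6.35 and 5.27 (at least 3.54-fold). Mycn is given without a direction. Its brighter probe set lay between 10.24 and 12.09 in L-GMP and at the floor on all 16 normal arrays, while its other probe set averaged 7.43 in MEP and lay at the floor in L-GMP (-2.16).

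D-type cyclins differed in direction, and of the 6 tested cyclins and kinases of this list 3 were lower and 2 higher. Ccnd2 lay between 5.46 and 7.06 in L-GMP and at 10.81, 10.95 and 10.57 in MEP, 20.3-fold lower (limma adjusted p = 3.94e-13), and its mean was 10.43 in normal GMP, 10.91 in CMP and 10.97 in HSC. Ccnd3 lay between 8.16 and 9.02 and at 7.33, 6.83 and 7.33, 2.59-fold higher. Ccnd1 was at the floor in L-GMP and at least 2.96-fold lower, not called with the floor at the 50th percentile (limma adjusted p = 0.503). Cdk4, the kinase these cyclins bind, was 1.56-fold lower.

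Of 9 tested inhibitors of cyclin-dependent kinases and Rb family members 6 were higher and 0 lower (median 0.49). Cdkn2c, which encodes p18, lay between 8.59 and 10.24 in L-GMP and at 7.44, 7.14 and 7.86 in MEP, 4.64-fold higher (limma adjusted p = 1.61e-06). Cdkn2d, which encodes p19, was 1.57-fold higher. Cdkn1a, which encodes p21, was at least 2.28-fold higher, a call lost without MEP 1 (0.0898) or MEP 2 (0.118). Rb1 was 1.40-fold higher, lost without MEP 3 (0.137). Cdkn1b (0.16) was not called.

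Of 34 tested S phase genes 5 were higher and 2 lower, with a median of 0.00. The higher count was 2 with the 3'/5' ratio as covariate or without MEP 2 and 3 without MEP 1, and the lower count was 0 in 5 of the alternatives, among them the fit without MEP 3. Pcna, the polymerase clamp, lay between 11.43 and 11.76 in L-GMP and at 11.47, 11.66 and 11.91 in MEP (-0.08, limma adjusted p = 0.607). Mki67 (0.15, limma adjusted p = 0.633) and Cdk1 (0.34, limma adjusted p = 0.312) were not called. Cdk1 was called without MEP 3 (0.72, limma adjusted p = 0.0271). Of 37 tested G2 and M phase genes 18 were higher and 0 lower (median 0.47), Kif23 by 3.002-fold and the mitotic kinase Aurka by 2.09-fold. The count fell to 8 with the 3'/5' ratio as covariate and to 12 without MEP 2. The ratio was lower in L-GMP by 0.24 log2 units.

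Ribosome biogenesis and Myc target genes, kept as 1 list, were lower in L-GMP almost throughout. Of 40 listed 36 were tested, 30 lower and 0 higher, with a median of -0.79. The differences were small and even. Srm, spermidine synthase, lay between 9.80 and 10.17 in L-GMP and at 10.83, 10.86 and 11.54 in MEP, 2.22-fold lower (limma adjusted p = 6.08e-07). Cad, of pyrimidine synthesis, was 2.37-fold lower, Ncl, nucleolin, 2.08-fold and Odc1, ornithine decarboxylase, 1.55-fold. Myc, whose targets the list holds by choice, lay between 8.80 and 9.04 in L-GMP and at 10.34, 10.36 and 10.13 in MEP, 2.61-fold lower (limma adjusted p = 1.05e-09). Leaving out Mycn, whose probe sets disagreed, 10 genes of the Myc network were tested, 3 higher and 1, Myc, lower. The ribosome biogenesis list's mean level ran from 8.79 to 9.01 in L-GMP, from 9.55 to 9.86 in MEP, from 9.44 to 9.59 in GMP and from 8.90 to 9.17 in HSC. The count stayed between 27 and 32 in all 24 alternatives.

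The ribosomal proteins themselves gave few calls. Of 39 tested 6 were lower and 1, Rps25, higher (median -0.13), the latter lost with the replicate block or without MEP 2, although 37 of 39 had a negative difference. Counts of lower members ranged from 2 without scaling to 23 with a variance trend in the fit. Rpl14, at 2.92-fold, and Rpl12, at 2.16-fold lower, were the largest. Of 59 tested subunits of oxidative phosphorylation 21 were lower and 2 higher (median -0.19), Ndufs1 by 1.89-fold.

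In glycolysis the steps moved unequally. Of 19 tested genes 11 were higher and 5 lower (median 0.50). Pkm, pyruvate kinase, lay between 9.71 and 10.63 in L-GMP and at 6.98, 7.31 and 6.62 in MEP, 9.32-fold higher (limma adjusted p = 7.14e-12). Pgam1 was 5.66-fold and the pentose phosphate enzyme Pgd 4.09-fold higher. The glucose transporter Slc2a3 was 5.43-fold and lactate dehydrogenase Ldha 1.83-fold lower. Of 7 tested serine and one-carbon enzymes 2 were lower and 1 higher. In serine synthesis the first enzyme, Phgdh, lay between 7.29 and 8.95 in L-GMP and at 10.99, 11.15 and 11.65 in MEP, 8.92-fold lower (limma adjusted p = 3.41e-10), and averaged 11.67 in GMP. Psat1 (0.08) and Psph (-0.08), the next enzymes, were not called, while the folate enzyme Mthfd1 was 4.44-fold lower.

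Immediate early and heat shock genes were mostly lower in L-GMP. Of 37 tested 24 were lower and 1 higher, Gadd45b (median -1.58). Hspa1a lay between 5.27 and 7.99 in L-GMP and at 11.77, 11.86 and 10.82 in MEP, at least 28.3-fold lower (limma adjusted p = 1.28e-05), and Hspa1b, a near-identical copy that may share its signal, was 21.2-fold lower. Rgs1, a brake on chemokine signalling, lay at 10.16, 10.25 and 10.23 in MEP and at the floor on 5 of 6 L-GMP arrays, at least 28.9-fold lower. Egr1 was 19.2-fold, Jun at least 8.96-fold and Fos 5.50-fold lower. Such genes respond within minutes to handling of cells, and the list varied widely among normal arrays. Its mean level ran from 7.48 to 8.004 in L-GMP and from 9.52 to 9.77 in MEP, but from 7.63 to 9.22 in GMP and from 7.83 to 9.83 in CMP. The part of sample handling in this difference was not tested. Without replicate 1 of HSC, CMP and GMP, an alternative chosen after seeing the data, 30 members were lower, and with the 3'/5' ratio as covariate 17.

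Interferon-stimulated genes were also mostly lower, 16 of 27 tested against 3 higher (median -0.53). Rtp4 lay at 10.10, 10.14 and 9.01 in MEP and at the floor on 4 of 6 L-GMP arrays, at least 16.018-fold lower (limma adjusted p = 1.93e-08), and the GTPase Iigp1 was at least 9.59-fold lower. Of 8 tested dendritic cell and MHC class II genes 5 were lower and 2 higher. H2-Aa lay at 8.97, 8.83 and 10.53 in MEP and at the floor on 5 of 6 L-GMP arrays, at least 15.9-fold lower, and H2-Eb1 at least 12.8-fold. Normal GMP averaged 7.73 for H2-Aa.

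Of 15 tested Bcl2 family genes 6 were higher and 0 lower, and all 6 encode members that promote cell death. Pmaip1 (NOXA) was at least 6.28-fold and Bak1 2.58-fold higher. The guardians were not called: Bcl2 differed by 0.14 (limma adjusted p = 0.323), Bcl2l1 as above, and Mcl1 by -0.56 (limma adjusted p = 0.0883, limma). Mcl1 was lower and called with the replicate number as a block (-0.70, limma adjusted p = 0.00821) and on the 9 arrays alone (limma adjusted p = 0.00567). Of 31 tested Polycomb and DNA methylation genes 9 were lower (29%, beside 22.9% of all genes) and 3 higher (9.68%, beside 22.2%). The de novo methyltransferase Dnmt3b was 3.43-fold, Cbx2 3.01-fold and Tet1 at least 2.70-fold lower, and Jarid2 2.26-fold higher. Of 22 tested adhesion genes 11 were higher and 3 lower, Itgb5 by 4.04-fold and the myeloid integrin chain Itgam by at least 3.57-fold. Of 13 tested lymphoid priming genes 4 were higher and 5 lower (2 lower with the floor at the 50th percentile), with Notch1 5.80-fold and Ets1 4.69-fold higher.

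Markers of other cells were looked at in both groups. Of 6 tested B cell genes, Ighm lay between 10.55 and 11.32 in L-GMP and at 6.50, 6.94 and 9.34 in MEP (10.6-fold), with 10.43 in normal GMP, and Cd79b was 5.21-fold higher, while the B cell factor Pax5 was 1.62-fold lower, a call lost without MEP 2 (limma adjusted p = 0.106), MEP 3 (0.0605) or L-GMP 3 (0.052). Ebf1 was at the floor on average in both groups and did not pass the filter. The list's mean level ran from 8.04 to 8.75 in L-GMP and from 7.35 to 7.54 in MEP. T and NK cell genes were 2 higher and 2 lower of 9 (22.2% each, near the shares over all genes), with Cd3e not called (0.49). Stroma and endothelium genes were 1 higher and 4 lower of 9, with Col1a1 not called (0.81) and Kdr 1.48-fold lower, a call lost with the replicate block (limma adjusted p = 0.112) and without MEP 1 (0.0737) or MEP 2 (0.0955). Their part in the results was not tested.

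**Figure D5:**
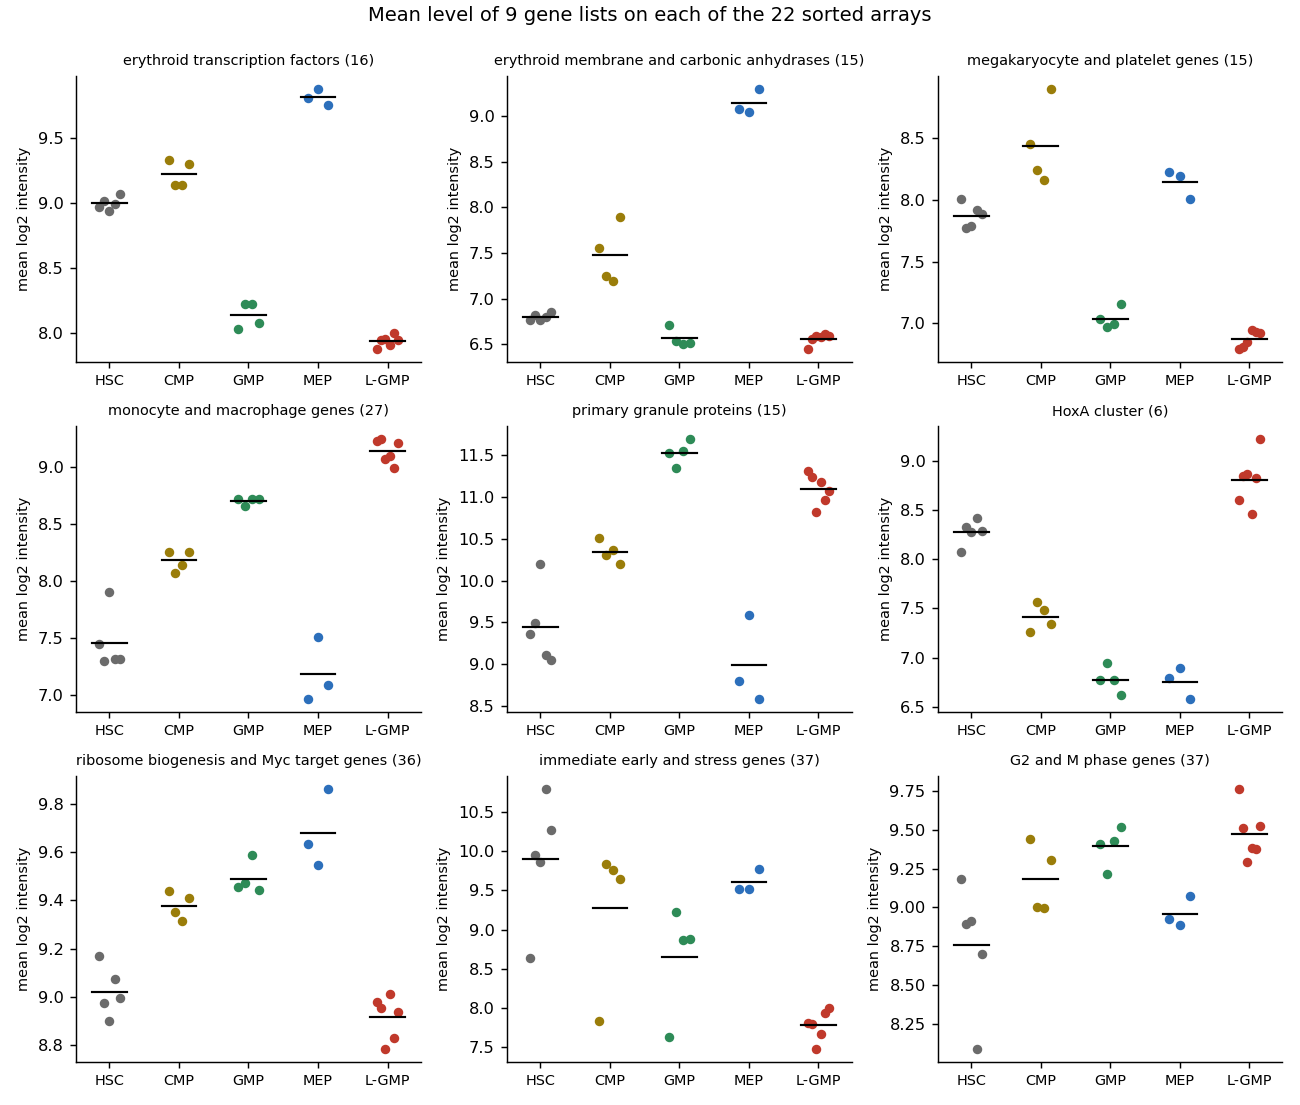
Mean log2 scaled intensity over the tested members of 9 gene lists on each of the 22 sorted arrays, by population, with the number of genes in brackets and black bars for group means. L-GMP lie near GMP and below MEP for the 3 erythroid and megakaryocyte lists, and above every normal group for HoxA, monocyte and macrophage genes. They lie at the low end with HSC for ribosome biogenesis and Myc target genes.

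Set beside all 5 populations, the list means place the difference from MEP in context. For erythroid transcription factors the mean level ran from 7.88 to 8.002 in L-GMP, from 8.03 to 8.23 in GMP and from 9.75 to 9.88 in MEP, with HSC and CMP between. For erythroid membrane genes L-GMP (6.45 to 6.61) and GMP (6.50 to 6.72) overlapped, far below MEP (9.04 to 9.30). For HoxA genes L-GMP (8.46 to 9.23) lay above HSC (8.08 to 8.42), whereas GMP (6.62 to 6.94) and MEP (6.58 to 6.89) overlapped. For monocyte and macrophage genes L-GMP (8.99 to 9.24) lay above GMP (8.65 to 8.72) and well above MEP (6.96 to 7.50). For the primary granule list the order was reversed, with GMP (11.34 to 11.69) above L-GMP (10.82 to 11.31).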

How the data were processed

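The intensity values were deposited as processed by the authors with MAS5, per the submitters' processing notes. Its version was not given in the sources used here. Values at or below 0 are present on every array. Each of the 22 sorted arrays was scaled to a common mean trimmed by 2% at each end (factors 0.923 to 1.12), floored at the 25th percentile and taken to log2. Probe sets above the overall median on 3 or more arrays were tested, using the brightest per gene. Of 22690 probe sets 20380 carried 1 gene symbol, 691 several and 1555 none, and 64 were controls. For 2582 genes several probe sets were kept, of which 33 had opposite calls. Genes were tested with limma 3.58.1 (R 4.3.3) on log2 values over all 22 arrays, with Benjamini-Hochberg adjustment over 8431 genes, after the procedure was tested on simulated data. The number of arrays limits the precision.

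The gene lists and their members were chosen with earlier results of these data known, while the arrays were chosen by sample title. Named genes were the 12 of largest change in each direction with no overlap between groups, the 6 brightest in each direction whose lower group was at the floor throughout, key members of the lists whatever their result, and up to 4 called members of each list in each direction. L-GMP and MEP share replicate numbers in their titles. Deviations from the group means of same-numbered arrays correlated at 0.18, 0.11 and 0.14 across genes, and the 15 other pairs at -0.29 to 0.24, with 2 of them above all 3 same-numbered values. Since every same-numbered pair passed 0.1, a fit with the replicate number as a block was run as an alternative. Other alternatives changed the floor, filter, scaling, probe set choice, arrays fitted and variance model, or left out an array. The 6 arrays of transduced cells, amplified on other days, were not used here.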

Additional observations from a re-analysis of the deposited data

Results flagged for a closer look

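Among the 6 L-GMP arrays, 19 of 175 levels had 1 array whose gap to the nearest other exceeded 0.625 of the whole range. Chance passes this limit for about 1 in 20 groups of normally distributed values without ties. Ties at the floor raise the share, and levels at the floor on all 6 arrays are in the 175 but cannot pass. The 19 of 175 therefore cannot be set against 1 in 20. The value after each name is that share. For Aqp1 (1), Bcl11a (1), Mllt3 (1) and Rgs1 (1) 5 arrays lay at the floor and 1 above it, highest at 5.51 for Aqp1, 5.36 for Bcl11a, 5.89 for Mllt3 and 5.82 for Rgs1. Tgif2 (0.9997) and Tfr2 (0.725) had 4 arrays at the floor and 1 furthest above it, at 6.75 and 5.62.

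One array stood above the others for Cebpb (0.627), Hoxa3 (0.738), Men1 (0.666) and Tyrobp (0.702). Hoxa3 reached 8.14 there against a median of 7.10. One array stood below the others for Car1 (0.777), Cdkn2d (0.634), Gfi1 (0.727), Lmo2 (0.714), Mpo (0.673), Pbx3 (0.643) and Sox4 (0.632). Mpo was 11.54 there against a median of 12.30, still above every MEP array. The mean level of the haem synthesis and iron uptake list (0.635) had 1 high array, at 7.98 against a median of 7.82, and that of the erythroid membrane list (0.660) had 1 low array, at 6.45 against 6.59.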

How the results depend on the processing

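Across the 24 alternatives the count of genes called lay between 3302 (only the 9 arrays) and 3903 (mean of all probe sets), leaving aside the fit without a filter, in which 12393 genes were tested and 4048 called. Without scaling 2118 of the 3601 genes called (58.8% of the calls) were higher, beside 1873 of 3804 calls in the main fit. Leaving out each array in turn gave 3393 to 3782 genes called, 1635 to 1864 higher and 1676 to 1936 lower, and at 2-fold or more 1253 to 1331, of which 713 to 814 were higher and 517 to 565 lower. Without replicate 1 of HSC, CMP and GMP together, chosen after seeing the data, 3815 were called, 1861 higher and 1954 lower. With single arrays left out the 3'/5' ratio difference ran from -0.300 to -0.203, and from Actb alone it was -0.0365 (exact permutation p = 0.393). With the replicate block 3692 genes were called, 1810 higher and 1882 lower, and 1344 at 2-fold or more. The block ended the calls of Cd14, Chaf1b, Gins1, Hoxc5, Kdr and Rps25, made that of Mcl1, and changed no other call among the named genes. Mycn reversed to -3.46 with the floor at the 10th percentile and to -2.58 with no floor. Gp1bb reversed to -0.012 with the floor at the 50th percentile, to -0.30 as the mean of its probe sets and to -1.14 on the probe set of largest variance. In these settings the probe set was chosen anew or all were averaged, and both genes have probe sets of opposite direction, as given above. The -1.14 of Gp1bb is the value of its other probe set. Which probe set gave the values under the changed floors was not tested. Of 2016 list counts under these settings 64 moved by over 1.5 times, some of them beside the counts given above. Others were interferon genes higher (3 to 1 with the 3'/5' covariate), Hox cofactors lower (3 to 5 without MEP 3 or with array weights), Polycomb higher (3 to 5, floor at the 50th percentile), oxidative phosphorylation higher (2 to between 1 and 5), ribosomal proteins lower (6 to 3 without MEP 2), cathepsins lower (2 to 1 without MEP 1 or MEP 3) and T and NK cell genes higher (2 to 1 without MEP 1, MEP 3, L-GMP 1 or L-GMP 2). Stroma genes moved from 1 to 2 higher without MEP 1, L-GMP 1 or L-GMP 2 and from 4 to 2 lower without MEP 2. Leaving out genes with opposite probe sets gave 17 of 36 G2 and M genes higher (without Bub3), 8 of 30 Polycomb genes lower (without Cbx8) and 10 of 21 adhesion genes higher (without Itgav). Signal over background limits values at the floor, which are bounds.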
